A study of Mus musculus with 18 samples.

Results

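Genes of iron handling and of the antioxidant response were followed in lung monocytes and macrophages of mice that had inhaled lipopolysaccharide (LPS): Hmox1, Slc40a1, Fth1, Ftl1, Slc7a11, Gclc, Gclm, Txnrd1, Srxn1 and Nqo1. They were chosen by symbol from the deposited table, which held all 10 among its 21254 genes. All 10 passed the filter on low counts, as did 15811 genes in all.

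Macrophages take up iron with haem, which heme oxygenase cleaves. The freed iron is stored in ferritin, a shell of heavy and light chains, or leaves the cell through ferroportin. The transcription factor NRF2 switches on genes that make glutathione and reduce oxidized thiols, and several iron genes, the ferritins and heme oxygenase among them, are also known NRF2 targets. In macrophages exposed to LPS, cystine import and the making of glutathione are part of the activation programme, and iron is withheld from bacteria by holding back its export.

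The libraries were made 24 h after a 15 min nebulization of 12.5 mg Pseudomonas aeruginosa LPS in 5 ml PBS, so every group had been treated with LPS. From CD45+ CD11b+ lung cells, 3 populations were sorted: MHC-II- Ly6C+ monocyte-derived macrophages (moMs), MHC-II+ Ly6C+ transitional interstitial macrophages (tnsIMs, labelled trIM) and MHC-II+ Ly6C- mature interstitial macrophages (matIMs). By the study's flow cytometry methods, alveolar macrophages and dendritic cells were taken from a CD11c+ gate, while the 3 populations came from CD11c- CD11b+ cells after granulocytes had been set aside by CD24 and MHC-II. WT mice were B6.Cx3cr1tm1.1(cre)Jung/J and Ezr-KOm mice were B6.Ez fl/fl crossed to Cx3cr1-Cre, so Cre was present in both genotypes and driven by a promoter that is active in monocytes and macrophages and, at lower levels, in some other leukocytes. The mice were 3 to 5 months old, and 3 libraries were made for each population of each genotype, 18 in 6 groups. The labels do not say whether libraries with the same number came from the same mouse, and p-values measure only the spread between these libraries. These were bulk samples, in which fewer cells of a type and less RNA per cell cannot be told apart.

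Library totals ranged from 16512783 to 48460995 counts. Ezr, the targeted gene, lay between 497 and 741 CPM (counts scaled to a common library size by TMM) in the WT libraries and between 93.8 and 282 CPM in the Ezr-KOm libraries. The 10 macrophage markers summed to between 4248 and 6419 CPM in every library. In WT matIMs against WT moMs, 7 of 7 monocyte markers were lower and 5 of 5 MHC class II genes higher. Of all tested genes, 11.4% were lower and 13.4% higher in that comparison, and 13% were higher in WT tnsIMs than in WT moMs. Ly6C and MHC-II were themselves used in the sort, so their genes are no independent sign of identity. Markers of other cells also moved with the populations. The 8 epithelial markers summed to between 1722 and 4099 CPM in tnsIMs, against 83.6 to 185 in moMs and 342 to 579 in matIMs, and 6 of the 8 were higher in WT tnsIMs than in WT moMs. The 8 dendritic cell markers summed to between 3276 and 4563 CPM in matIMs, against 94.1 to 140 in moMs and 204 to 448 in tnsIMs, and 7 of the 8 were higher in WT matIMs than in WT moMs. None of these 16 markers was at 0 in any library. Endothelial markers (6 of 6) and fibroblast markers (4 of 6) were higher in WT tnsIMs than in WT moMs, and 4 of 8 lymphocyte markers were higher in WT matIMs than in WT moMs. In the same comparison 9 of 10 alveolar macrophage markers were higher and 1 lower, and their sum went from between 5502 and 6803 CPM to between 1161 and 1406 CPM. Of 8 neutrophil markers 3 were higher and 2 lower, and their sum went from between 779 and 876 CPM to between 259 and 326 CPM. Of 8 dissociation stress genes, 2 were lower in WT matIMs than in WT moMs. Between the genotypes no gene of these marker lists passed in any population. Few of all tested genes did (0.171% for moMs, 0.164% for tnsIMs, 0.152% for matIMs), so this does not show an unchanged cell mix. The part of these other cells in the differences between populations given below was not tested.

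The members spanned a wide range of expression. Per kilobase of merged exon, the scale on which genes can be set against each other, Fth1 stood at rank 10 of 15755 genes with a mean of 2045 CPM per kb, and Ftl1 at rank 47 with 586 CPM per kb. Hmox1 followed with 105 CPM per kb, Txnrd1 with 64.0, Slc7a11 with 27.3, Srxn1 with 15.7, Gclc with 13.5 and Gclm with 6.07. Slc40a1 and Nqo1 were the lowest of the members, at 0.685 and 0.651 CPM per kb (ranks 10715 and 10844). Slc40a1 had 42 to 385 counts in a library and Nqo1 13 to 163, so these 2 genes were measured least precisely.

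**Figure D1:**
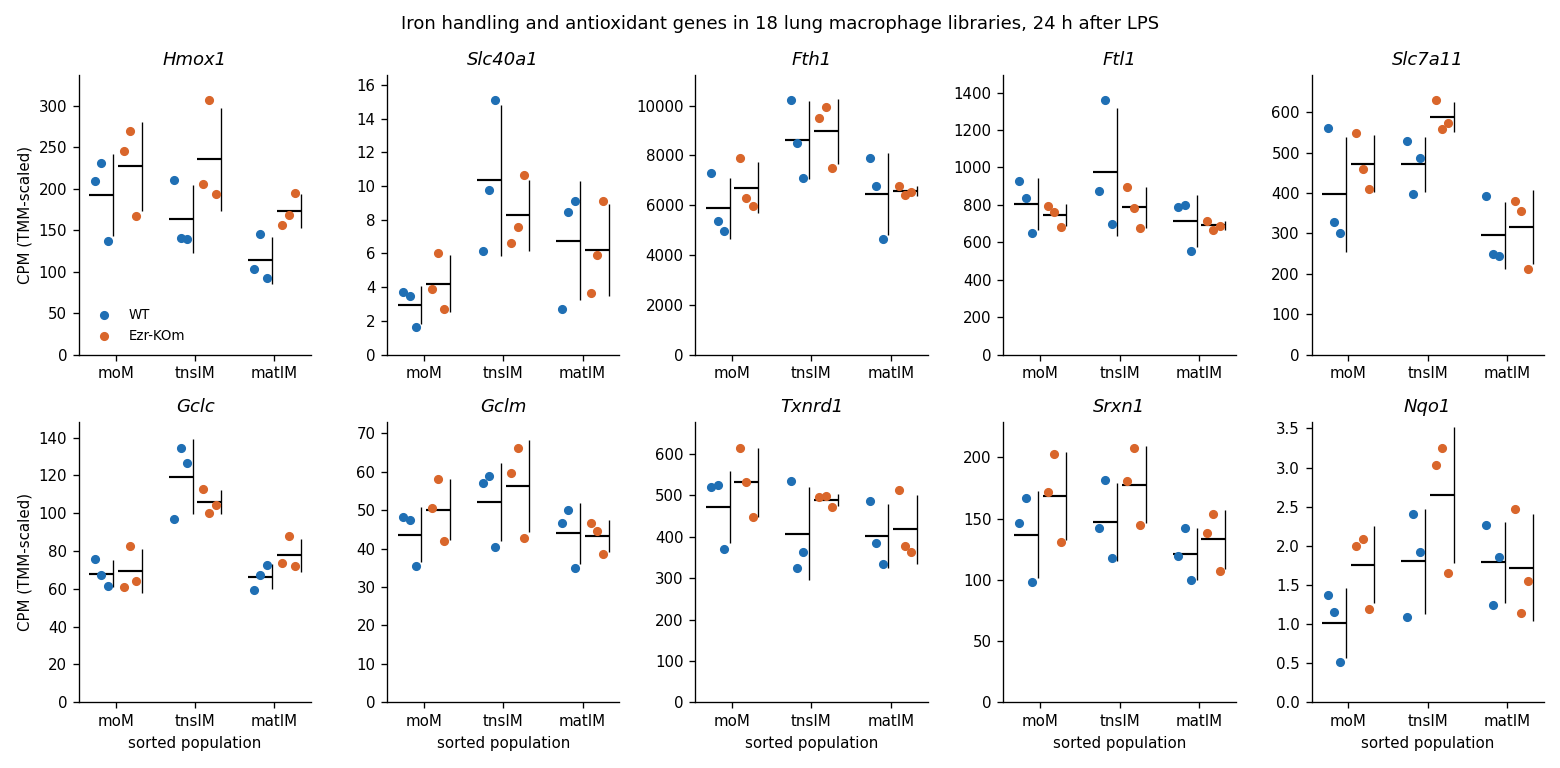
Each panel plots 1 gene, with the sorted population on the x axis and CPM on a linear y axis from 0; points are single libraries (WT in blue, Ezr-KOm in orange, 3 per group), horizontal bars are group means and vertical bars the SD. Gclc stands highest in tnsIMs in both genotypes, while the lowest Hmox1 mean is that of WT matIMs, 113 CPM.

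Hmox1 encodes the inducible heme oxygenase and lies on chromosome 8 at 75820249 to 75827217 (GRCm39). WT moMs had 209.6, 232 and 137 CPM, WT tnsIMs 210.4, 141 and 139 CPM, and WT matIMs 103, 145 and 92.3 CPM. The Ezr-KOm libraries had 245, 269 and 167 CPM in moMs, 206, 307 and 193 CPM in tnsIMs and 156, 169 and 195 CPM in matIMs. In WT mice the level fell towards matIMs, though the highest matIM library was above the lowest moM library. WT matIMs were lower than WT moMs by a log2 fold change of -0.76 (95% CI -1.28 to -0.25, adjusted p = 0.0280, edgeR's quasi-likelihood test), and Hmox1 was the 1 of 10 members called in this comparison, in which 24.8% of all tested genes passed. The call was lost without WT moM replicate 1 (-0.74, adjusted p = 0.0714) or replicate 2 (-0.63, adjusted p = 0.116), without WT matIM replicate 1 (-0.73, adjusted p = 0.0830) or replicate 3 (-0.64, adjusted p = 0.105), and when libraries were scaled by their totals (-0.67, adjusted p = 0.0557). In Ezr-KOm mice the same difference was -0.39 (95% CI -0.90 to 0.12, adjusted p = 0.288). The difference between the genotypes in this step was 0.37 (95% CI -0.35 to 1.09, unadjusted p = 0.293), so a different course of Hmox1 in Ezr-KOm mice was not shown.

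Slc40a1 encodes ferroportin, the iron exporter, on chromosome 1 at 45947228 to 45965683. Its levels were low throughout, at 3.70, 3.48 and 1.65 CPM in WT moMs, 6.13, 9.77 and 15.1 CPM in WT tnsIMs and 2.705, 8.46 and 9.13 CPM in WT matIMs. All 3 WT tnsIM libraries were above all 3 WT moM libraries, as in 19.6% of tested genes. WT tnsIMs had 3.53 times the level of WT moMs (log2 fold change 1.82, 95% CI 0.84 to 2.80, adjusted p = 0.00902 by edgeR). WT matIMs also had a higher mean than WT moMs, at a log2 fold change of 1.21 that did not pass (adjusted p = 0.0662) and whose groups overlapped through WT matIM replicate 1. Without that library the difference passed (1.55, adjusted p = 0.0130), as it did with DESeq2 (1.19, adjusted p = 0.0312). In Ezr-KOm mice Slc40a1 had 3.87, 6.05 and 2.69 CPM in moMs, 6.61, 7.54 and 10.6 CPM in tnsIMs and 3.66, 5.92 and 9.10 CPM in matIMs. The tnsIM libraries again lay above the moM libraries without overlap, as in 16.1% of tested genes, at a log2 fold change of 0.97 (95% CI 0.02 to 1.92) with an adjusted p of 0.177. The steps of the 2 genotypes differed by -0.85 (95% CI -2.20 to 0.50, unadjusted p = 0.202).

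Ferritin heavy chain, encoded by Fth1 on chromosome 19 at 9957962 to 9962462, oxidizes iron for storage, and it was the most abundant member. Fth1 had 7280, 5368 and 4980 CPM in WT moMs, 10221, 8506 and 7101 CPM in WT tnsIMs and 7916, 6785 and 4658 CPM in WT matIMs. The Ezr-KOm values were 7881, 6274 and 5968 CPM in moMs, 9506, 9942 and 7490 CPM in tnsIMs and 6775, 6394 and 6523 CPM in matIMs. Means were highest in tnsIMs in both genotypes, and replicate 3 of WT tnsIMs and of Ezr-KOm tnsIMs fell within the range of the moMs. WT tnsIMs exceeded WT moMs by a log2 fold change of 0.55 (95% CI 0.13 to 0.97), just outside the threshold at an adjusted p of 0.0559. It passed in 7 of 16 alternatives: without WT moM replicate 1 (0.73, adjusted p = 0.0346), without WT tnsIM replicate 3 (0.70, adjusted p = 0.0310), with DESeq2 (0.58, adjusted p = 0.0308), with scaling by library totals (0.61, adjusted p = 0.0227) or by upper quartiles (0.65, adjusted p = 0.0446), and with either replicate block. Same-numbered libraries deviated together in this comparison, and when edgeR's fit took the replicate number as a block the difference passed in WT (0.55, adjusted p = 0.00432) and in Ezr-KOm mice (0.42, adjusted p = 0.0290). With the same replicate block, Fth1 was lower in matIMs than in tnsIMs in WT (-0.43, adjusted p = 0.0239) and in Ezr-KOm mice (-0.44, adjusted p = 0.0209), where the fit without the block gave adjusted p of 0.181 and 0.140.

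Ftl1 encodes the ferritin light chain, which forms the mineral core, on chromosome 7 at 45107368 to 45109308. Its values lay between 553 and 1359 CPM over all 18 libraries, and the highest was WT tnsIM replicate 2. No comparison between populations or genotypes passed for Ftl1, although the fall from WT tnsIMs to matIMs did so without WT tnsIM replicate 3 (-0.69, adjusted p = 0.0296) and with the replicate block fitted within genotype (-0.42, adjusted p = 0.0262). The 95% intervals of its differences between populations lay between -0.88 and 0.71 on the log2 scale. Both ferritins have copies that could share reads with them. These are processed pseudogenes, apart from the Ftl1 copy Ftl1-ps1, which is annotated as protein-coding. The 3 Fth1 copies in the table summed to between 0.0480% and 0.0969% of the Fth1 count, and the 3 Ftl1 copies to between 1.36% and 3.64% of the Ftl1 count. Only uniquely mapped reads were counted, so these shares do not show how many reads matched both a ferritin gene and a copy.

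The glutathione genes were described next. Slc7a11 encodes xCT, which imports cystine in exchange for glutamate, on chromosome 3 at 49846975 to 50398063. WT moMs had 561, 328 and 302 CPM, WT tnsIMs 529, 396 and 487 CPM and WT matIMs 391.7, 248 and 244 CPM. Ezr-KOm moMs had 549, 458 and 411 CPM, Ezr-KOm tnsIMs 629, 559 and 573 CPM and Ezr-KOm matIMs 380.1, 355 and 212 CPM. In both genotypes every matIM library was below every tnsIM library, as in 15.4% of tested genes in WT and 15.7% in Ezr-KOm mice. In Ezr-KOm mice matIMs had 0.538 times the tnsIM level (log2 fold change -0.89, 95% CI -1.41 to -0.38, adjusted p = 0.0148), and without Ezr-KOm matIM replicate 3 this call was lost (-0.71, adjusted p = 0.0779). In WT mice the difference was -0.68 (95% CI -1.19 to -0.16), with an adjusted p of 0.0656 that became 0.00420 with the replicate block (-0.71) and 0.0163 without WT matIM replicate 1 (-0.97). The size of the step did not separate the genotypes (difference -0.22, 95% CI -0.95 to 0.51, unadjusted p = 0.536).

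Gclc, the catalytic subunit of glutamate-cysteine ligase, the first and limiting enzyme of glutathione synthesis, was the member with the clearest pattern. It lies on chromosome 9 at 77661817 to 77701767. WT moMs had 75.5, 67.5 and 61.3 CPM, WT tnsIMs 97.1, 135 and 126 CPM and WT matIMs 59.5, 67.5 and 72.4 CPM. The Ezr-KOm libraries had 61.2, 82.8 and 64.0 CPM in moMs, 113, 100.3 and 105 CPM in tnsIMs and 73.5, 87.8 and 72.1 CPM in matIMs. In both genotypes the 3 tnsIM libraries lay above all moM and all matIM libraries. Of all tested genes, 19.6% in WT and 16.1% in Ezr-KOm mice were higher in tnsIMs than in moMs without overlap. For matIMs below tnsIMs the shares were 15.4% and 15.7%, and the share with both steps was not counted. WT tnsIMs had 1.75 times the level of WT moMs (log2 fold change 0.81, 95% CI 0.49 to 1.13, adjusted p = 8.68e-04), and WT matIMs 0.557 times the level of WT tnsIMs (-0.84, 95% CI -1.17 to -0.52, adjusted p = 5.40e-04). In Ezr-KOm mice the rise from moMs was 0.61 (95% CI 0.29 to 0.93, adjusted p = 0.00985) and the fall to matIMs was -0.44 (95% CI -0.76 to -0.13, adjusted p = 0.0490). The rise and the fall in WT mice and the rise in Ezr-KOm mice passed in 16 of 16 alternatives each. The fall in Ezr-KOm mice passed in 10 of 16, and was lost without tnsIM replicate 1 (adjusted p = 0.115) or 2 (adjusted p = 0.0709), without matIM replicate 1 (adjusted p = 0.0970) or 3 (adjusted p = 0.117), with scaling by library totals (-0.40, adjusted p = 0.0955) and with each genotype fitted alone (adjusted p = 0.0624). The fall differed between the genotypes by 0.40 (95% CI -0.05 to 0.85, unadjusted p = 0.0787).

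Gclm encodes the modifier subunit of the same ligase, on chromosome 3 at 122039206 to 122064381. Its group means ran from 43.2 ± 4.24 CPM (SD, n = 3) in Ezr-KOm matIMs to 56.3 ± 12.1 CPM in Ezr-KOm tnsIMs, and the libraries of all groups overlapped. In the fit with the replicate block, Ezr-KOm matIMs were lower than Ezr-KOm tnsIMs (-0.36, adjusted p = 0.0174), against an adjusted p of 0.222 without the block. The catalytic and the modifier subunit thus differed in what was called: Gclc was higher in tnsIMs than in moMs, while the interval for Gclm in WT mice was -0.16 to 0.67. This difference between the subunits was not tested.

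Txnrd1, the cytosolic thioredoxin reductase, lies on chromosome 10 at 82669785 to 82733546. It had between 324 and 615 CPM in the 18 libraries and passed in no comparison. Srxn1 encodes sulfiredoxin, which reactivates overoxidized peroxiredoxins, on chromosome 2 at 151947436 to 151953296. Srxn1 had 142, 181 and 118 CPM in WT tnsIMs and 120, 142 and 100.1 CPM in WT matIMs, and 180.3, 208 and 145 CPM in Ezr-KOm tnsIMs against 138, 154 and 107 CPM in Ezr-KOm matIMs. The groups overlapped, but each matIM library was below the tnsIM library of its own number. How many of all tested genes had this pattern was not counted. Srxn1 did not pass in the fit without the block (adjusted p = 0.465 in WT and 0.237 in Ezr-KOm mice) and passed with the replicate block (-0.28, adjusted p = 0.0424 and -0.42, adjusted p = 0.00325), but in WT not with the block fitted within genotype (-0.28, adjusted p = 0.0548). Nqo1, a quinone reductase often used as a readout of NRF2, was at the low end of detection on chromosome 8 at 108114857 to 108129838. Its group means ran from 1.01 ± 0.446 CPM (SD, n = 3) in WT moMs to 2.65 ± 0.867 CPM in Ezr-KOm tnsIMs, and it passed in no comparison.

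Several of these genes are textbook NRF2 targets, so the antioxidant response element core TGACNNNGC was searched on both strands of RefSeq promoter windows running from 250 bases before to 50 bases after each start site (GRCm38.p6). Windows were at hand for 7 members: Fth1, Ftl1, Nqo1, Gclm, Txnrd1, Srxn1 and Slc7a11. A match was held by 3 of the 7, Gclm, Srxn1 and Txnrd1, and by 14% of all 27025 genes with a window. The matched sites of these 3 members are shown as a description, and a link between a match and expression was not tested. All 3 are read on the strand opposite to the gene, with the 9 bases of the match in capitals and 10 bases on either side, at chr3:122245413-122245441, chr2:152105542-152105570 and chr10:82859104-82859132.
Gclm: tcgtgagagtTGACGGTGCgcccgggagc
Srxn1: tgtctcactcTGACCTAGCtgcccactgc
Txnrd1: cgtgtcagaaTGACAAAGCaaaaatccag
The Gclm match lay 134 to 126 bases before the start site, the Txnrd1 match 92 to 84 bases before it and the Srxn1 match 29 to 37 bases after it. A match is a run of letters in a window and was not measured as a bound site. Sequence outside the windows was not searched, so a member without a match may hold the element elsewhere.

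In WT tnsIMs against WT moMs, 2 of 10 members passed, both higher (Slc40a1 and Gclc), beside 13% of all tested genes that were higher in this comparison. The members' median log2 fold change was 0.27, against 0.01 over all tested genes. With the replicate block Fth1 joined them, which made 3 of 10 beside 16.1%. In Ezr-KOm mice 1 of 10 members (Gclc) was higher beside 9.23% of tested genes, and 2 of 10 (Gclc and Fth1) with the replicate block beside 11.8%.

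From tnsIMs to matIMs, all 10 members had a negative fold change in both genotypes (Nqo1 and Txnrd1 in WT mice, near 0, turned positive when libraries were scaled by their totals and when some single libraries were left out, in 4 and 3 of 16 alternatives), whereas 53.5% of tested genes in WT and 51.5% in Ezr-KOm mice had a positive one. The median over the members was -0.43 in each genotype, against 0.04 in WT and 0.02 in Ezr-KOm mice over all tested genes. By adjusted p, 1 of 10 passed in WT mice (Gclc), beside 10.2% of tested genes that were lower, and 2 of 10 in Ezr-KOm mice (Gclc and Slc7a11), beside 9.85%. With the replicate block 4 of 10 were lower in WT matIMs (Fth1, Gclc, Slc7a11 and Srxn1), beside 12.4% of tested genes, and 5 of 10 in Ezr-KOm matIMs (the same 4 and Gclm), also beside 12.4%. Members of 1 pathway are not independent of each other, and the steps to and from tnsIMs share the tnsIM libraries.

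In matIMs against moMs the median was -0.10 in WT and -0.16 in Ezr-KOm mice. In WT mice Hmox1 alone passed, as given above. In Ezr-KOm mice 0 of 10 members passed without the block, beside 23.3% of tested genes, and DESeq2 called 0 members. Slc7a11 had an unadjusted p under 0.05 in edgeR's fit (log2 fold change -0.58, 95% CI -1.10 to -0.07, adjusted p = 0.101). With the replicate block 2 of 10 were lower, beside 14.1% of tested genes: Slc7a11 (-0.59, adjusted p = 0.0115) and Srxn1 (-0.33, adjusted p = 0.0132).

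**Figure D2:**
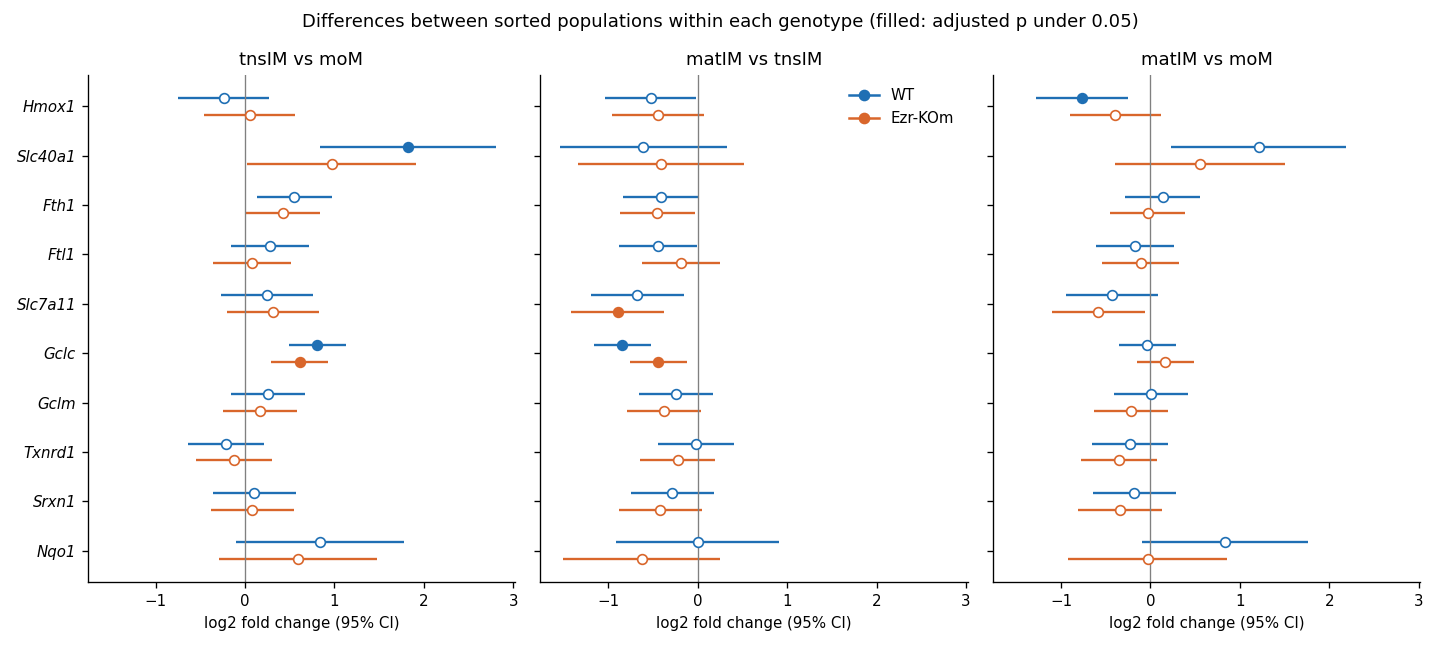
Points are log2 fold changes between sorted populations on the x axis, with bars for the 95% confidence interval, for each of the 10 genes on the y axis, in WT (blue) and Ezr-KOm mice (orange); filled points have an adjusted p under 0.05 in the fit without the replicate block. All 20 points of the middle panel, matIMs against tnsIMs, are below 0 (Nqo1 and Txnrd1 in WT mice turn positive with scaling by library totals and without some single libraries), and Gclc is filled in both genotypes on the way up to tnsIMs and on the way down.

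The loss of ezrin was compared within each population. No member passed at an adjusted p under 0.05 in moMs, tnsIMs or matIMs, with edgeR, with DESeq2 or with the replicate block, beside 0.171%, 0.164% and 0.152% of tested genes. With the looser threshold used in the study (p under 0.05 before adjustment and a log2 fold change beyond 0.75 in either direction), the count was again 0 of 10 in each population, beside 2.51%, 1.83% and 2.4% of tested genes. In the fit without the block, Hmox1 was the member with the smallest p in tnsIMs and in matIMs. In matIMs all 3 Ezr-KOm libraries (156, 169 and 195 CPM) were above all 3 WT libraries (103, 145 and 92.3 CPM), a pattern seen in the same direction in 5.03% of tested genes. The mean was 1.53 times higher in Ezr-KOm matIMs (log2 fold change 0.61, 95% CI 0.10 to 1.12, unadjusted p = 0.0223, adjusted p = 0.9999 with edgeR). In tnsIMs the Ezr-KOm mean was 1.44 times that of WT (0.53, 95% CI 0.02 to 1.04, unadjusted p = 0.0439, adjusted p = 1), with overlapping groups, and in moMs the difference was 0.24 (95% CI -0.27 to 0.75). Over 15 alternatives the difference in matIMs stayed between 0.48 and 0.84, with unadjusted p from 0.00405 to 0.0924 and adjusted p of at least 0.413.

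Srxn1 was higher in the Ezr-KOm library than in the same-numbered WT library in all 9 pairs, as in 1.38% of tested genes, a pattern noticed after the values were seen. In moMs it had 172, 202 and 131 CPM in Ezr-KOm against 146, 167 and 98.0 CPM in WT mice, and the other populations are given above. With the replicate block its log2 fold change was 0.31 in moMs (unadjusted p = 0.00509, adjusted p = 0.471), 0.28 in tnsIMs (unadjusted p = 0.00996, adjusted p = 0.670) and 0.14 in matIMs (unadjusted p = 0.170), so it did not pass.

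Slc7a11 in tnsIMs was the other member whose genotypes did not overlap: 559 to 629 CPM in Ezr-KOm against 396 to 529 CPM in WT, a log2 fold change of 0.32 (95% CI -0.20 to 0.83), where 3.05% of tested genes were higher without overlap. By sign, 9 of 10 members were higher in Ezr-KOm moMs, 7 of 10 in tnsIMs and 6 of 10 in matIMs, against 50.5%, 50.4% and 49.8% of tested genes, though 1, 4 and 7 of the 10 signs changed in at least 1 alternative. The medians over the members were 0.22, 0.19 and 0.04. Leaving aside the low-count genes Slc40a1 and Nqo1, the 95% intervals of the genotype differences lay between -0.75 and 1.12 on the log2 scale, so smaller changes were not resolved. For Slc40a1 and Nqo1 the intervals ran from -1.25 to 1.74. The genotype effect was not shown to differ between populations for any gene: 0 of 15811 genes passed in the 3 interaction tests by edgeR and by DESeq2, and 233, 268 and 183 genes had an unadjusted p under 0.05 by edgeR.

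**Figure D3:**
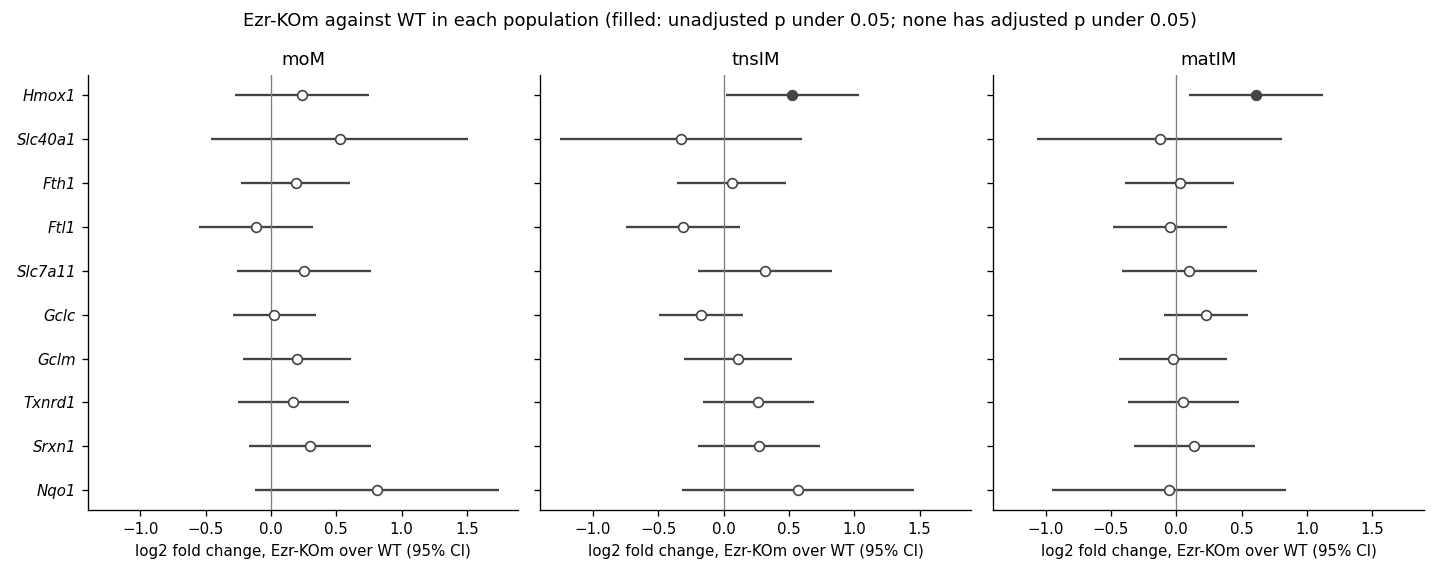
Log2 fold changes of Ezr-KOm over WT (x axis) with 95% confidence intervals for the 10 genes (y axis) in each sorted population; filled points have an unadjusted p under 0.05. Hmox1 in tnsIMs and matIMs, at 0.53 and 0.61, is filled, and no point passes after adjustment.

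Libraries with the same number tended to move together. In Gclm and Srxn1, replicate 3 was the lowest library of its group in all 6 groups, which was true of 1.63% of tested genes, and in 6 of the 10 members it was the lowest in at least 5 groups, against 6.45% of tested genes. This pattern was chosen after the values were seen. The labels do not say what libraries of 1 number share. Replicate 3 libraries were not lowest for Slc40a1 in tnsIMs and matIMs, where they were the highest. Haemoglobin and other erythroid transcripts, 6 genes in the table, summed to between 3.43 and 35.8 CPM, and in each group replicate 2 was the lowest library. The part of this in the members' spread was not tested.

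**Figure D4:**
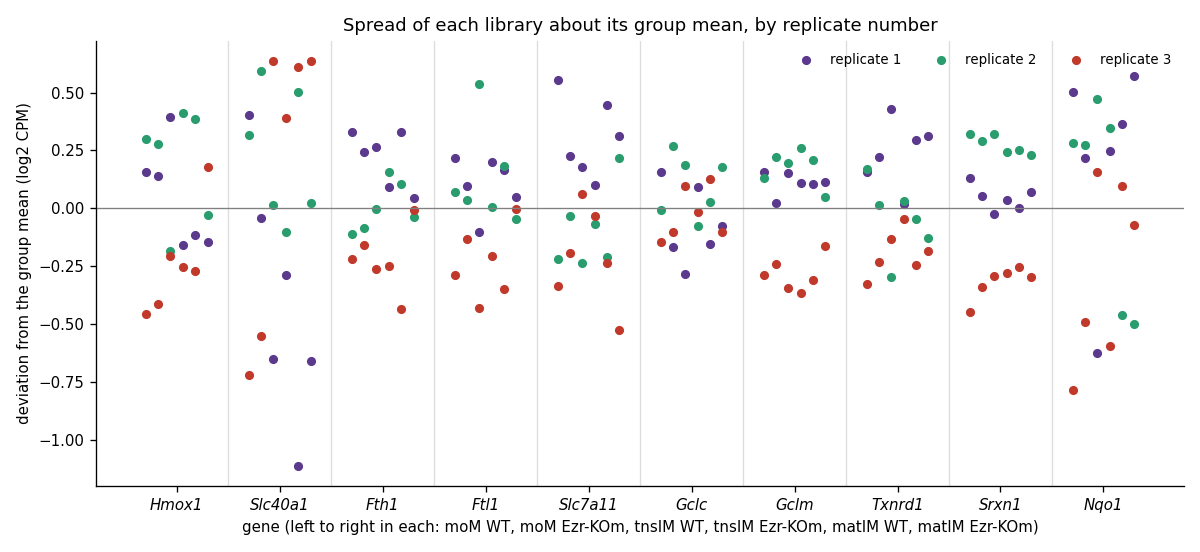
The y axis is the deviation of each library from the mean of its group in log2 CPM, for the 10 genes on the x axis, with the 6 groups side by side within a gene and the replicate number as the colour. For Gclm and Srxn1 the replicate 3 points are the lowest in all 6 groups.

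Around the members, 91 further genes of iron and redox handling in 9 lists were counted, all of them tested. From moMs to matIMs, 9 were higher and 29 lower in WT mice and 8 were higher and 30 lower in Ezr-KOm mice, beside 13.4% and 11.4% of all tested genes in WT and 12.5% and 10.7% in Ezr-KOm mice. From moMs to tnsIMs the counts were 14 higher and 22 lower in WT mice, beside 13% and 8.61% of all tested genes, and 10 and 16 in Ezr-KOm mice, beside 9.23% and 5.04%. From tnsIMs to matIMs they were 5 higher and 18 lower in WT mice, beside 8.32% and 10.2%, and 5 and 23 in Ezr-KOm mice, beside 8.37% and 9.85%. Between the genotypes 0 of 91 passed in any population, beside 0.171% (moMs), 0.164% (tnsIMs) and 0.152% (matIMs) of all tested genes. With shares this low, a count of 0 does not set these lists apart from other genes.

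Among 16 genes of iron uptake and release, 4 were higher and 6 lower in WT matIMs than in WT moMs. Cp, the ferroxidase ceruloplasmin, rose from a mean of 5.59 to 18.9 CPM (log2 fold change 1.77, adjusted p = 1.54e-05). Hamp, the hormone hepcidin that removes ferroportin from the membrane, passed too, at means of 0 CPM in WT moMs and 0.498 CPM in WT matIMs. Trf, transferrin, fell by 1.57 from 928 to 313 CPM, and Slc11a1, the phagosomal metal transporter NRAMP1, by 1.11 from 737 to 342 CPM. In Slc11a1 the whole fall lay between tnsIMs and matIMs, since the tnsIM mean was 737 CPM. Of 6 genes of iron sensing and ferritin turnover, Fbxl5, an iron-sensing ubiquitin ligase subunit, was the 1 that passed (-1.17, adjusted p = 1.23e-04). Of 11 haem genes, 4 were lower and 0 higher, led by Hp, haptoglobin, which binds free haemoglobin (1124 to 99.4 CPM, -3.50, adjusted p = 1.42e-11), and Lrp1, the receptor for haem-haemopexin (-1.41, adjusted p = 1.96e-05).

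Of 10 NRF2 regulators, Nfe2l2, which encodes NRF2 itself, was lower in WT matIMs than in WT moMs (758 to 493 CPM, -0.62, adjusted p = 0.00321), and Bach2, of the family of repressors that compete for the same sites, was higher (6.28 to 21.5 CPM, 1.77, adjusted p = 2.84e-05). Of 15 other glutathione genes 6 were lower and 1 higher. Mgst1, a microsomal glutathione transferase, went from 200.01 to 17.8 CPM (-3.49, adjusted p = 4.59e-11) and Gstm1 from 139 to 35.4 CPM (-1.98, adjusted p = 9.71e-09), while Chac1, which degrades glutathione, rose from 0.377 to 2.36 CPM (2.63, adjusted p = 7.94e-04). Of 10 thioredoxin system genes 1 passed, the peroxiredoxin Prdx5 (-0.87, adjusted p = 0.00119).

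Of 13 NADPH genes and other NRF2 targets, 2 were higher and 6 lower. Idh1, a cytosolic source of NADPH, fell by 1.75 (adjusted p = 2.77e-06) and the carbonyl reductase Cbr3 by 1.39 (adjusted p = 4.77e-05). Me1, malic enzyme, was highest in tnsIMs, where the WT mean was 6.81 CPM, against 0.696 CPM in moMs and 1.86 CPM in matIMs. Its difference between WT matIMs and moMs was 1.39 (adjusted p = 0.0135), and in Ezr-KOm mice it was 0.07 (adjusted p = 0.933); the interaction did not pass for it or for any other gene. The aldo-keto reductase Akr1b8 was 0.84 higher (adjusted p = 0.0183). Of 4 genes that remove superoxide and peroxide, cytosolic Sod1 was higher by 0.51 (adjusted p = 0.0457) and mitochondrial Sod2 lower (-0.49, adjusted p = 0.0350). Of 6 NADPH oxidase genes 3 were lower, among them Cybb, the membrane catalytic subunit (2411 to 1283 CPM, -0.91, adjusted p = 6.65e-04).

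**Figure D5:**
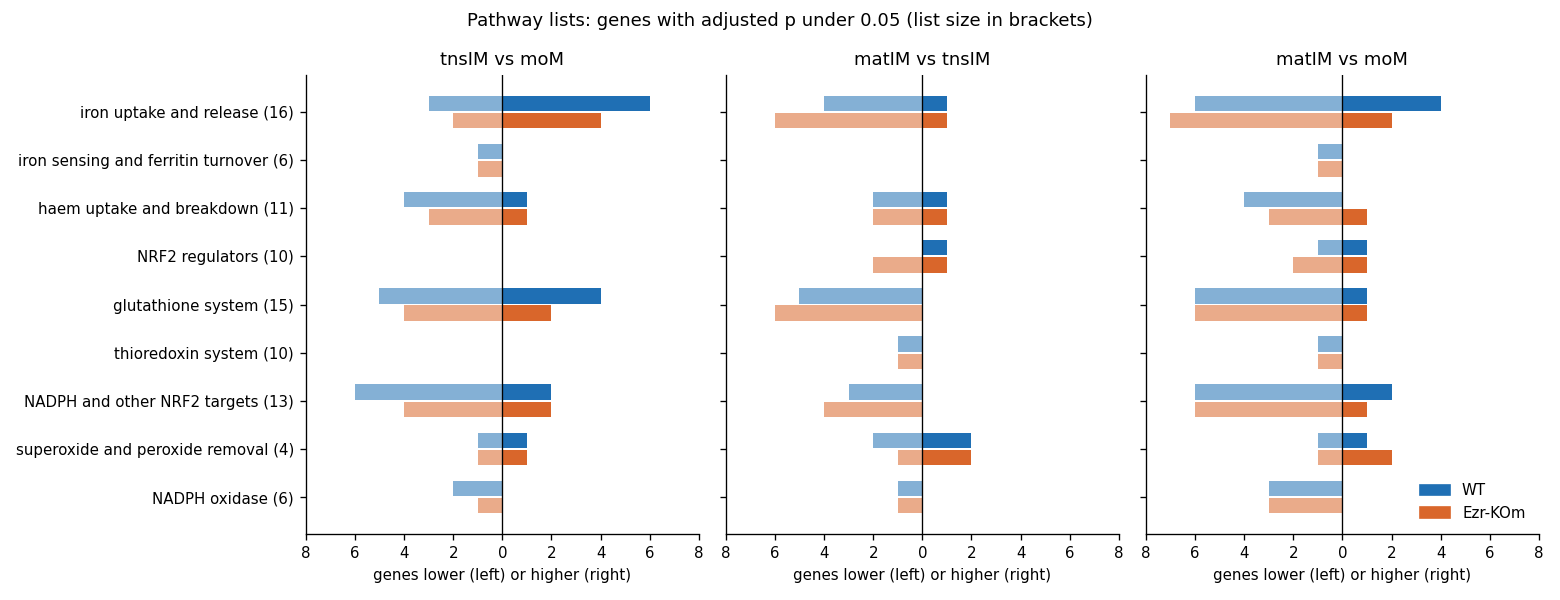
Bars count the genes with an adjusted p under 0.05 that were lower (left) or higher (right) in each comparison of populations, for the 9 lists on the y axis with their sizes in brackets, in WT (blue) and Ezr-KOm mice (orange). From moMs to matIMs the bars to the left outnumber those to the right, 29 against 9 genes in WT mice.

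For 3 members the genes with the most similar profile over the 18 libraries were listed, by Pearson's r of log2 CPM. These are descriptions over libraries that share populations and sequencing, without a test. Nearest to Hmox1 were Siglec1 (r = 0.88), Id3 (0.83) and Ehd1 (0.83). Slc40a1 was nearest to Olfm4 (r = 0.88), Gask1b (0.88) and Myo1d (0.85), each with a mean of at most 10.7 CPM in any group. Slc7a11 was nearest to Il1a (r = 0.96), Olr1 (0.93) and Inhba (0.92).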

How the data were processed

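RNA from sorted cells was made into libraries with SMART-Seq v4 and Nextera XT, which do not mark strand, and sequenced as paired ends. The authors aligned the reads with STAR 2.7.9a to GRCm39 and counted uniquely mapped reads per gene of a Gencode annotation, and the deposited values are whole-number counts without normalization. The strand column used is not given in the sources used here. The table's columns matched the 18 samples by name, and 0 other columns were present.

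The 10 members and all gene lists were chosen with earlier results of these data known. Following the study's choice of test, counts were fitted with edgeR 4.0.16 (R 4.3.3): filterByExpr on the 6 groups (smallest count 10), TMM, and 1 quasi-likelihood model of the 18 libraries, with contrasts between populations within a genotype, between genotypes within a population, and their interactions. P-values were adjusted by Benjamini-Hochberg over all 15811 genes tested, and a gene was called at an adjusted p under 0.05. Standard errors and 95% intervals were taken from the test statistic. CPM are TMM-scaled, and log2 values use a prior count of 2. The replicates of every group differed by more than sampling noise. The test was also run on simulated counts of independent libraries, with planted changes larger than any called in the members by this model. That run does not show how often changes of the members' size are found.

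Besides all members, the text names, in each list, up to 2 genes in each direction with the smallest adjusted p in WT matIMs against moMs, Ezr, and the 3 genes most similar to Hmox1, Slc40a1 and Slc7a11. Some results under this rule are not reported here. Replicate numbers come from the labels. The correlation of the deviations of same-numbered libraries from their group means was between 0.102 and 0.316 for genotypes and between 0.169 and 0.397 for tnsIMs against moMs or matIMs, which counts as paired (above 0.1 for every pair), and at least 0.0905 for matIMs against moMs, which does not. Alternatives were other normalizations and filters, DESeq2 1.42.0, a robust fit, each genotype or population alone, the replicate block, and leaving out each library. Exon lengths for the values per kilobase came from a later Gencode annotation of the same build and promoter windows from RefSeq. Reads of genes that overlap on opposite strands cannot be told apart without strand, and strand would not separate genes on the same strand. Genes overlapping Ftl1, Gclm, Txnrd1 and Slc7a11 had at most 18, 60, 108 and 140 counts in a library. The values for Txnrd1 and Slc7a11 are from genes on the same strand.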

Additional observations from a re-analysis of the deposited data

How the results depend on the processing

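The number of members called was between 0 and 5 of 10 in every comparison of populations and 0 in every comparison of genotypes and every interaction, under each alternative run. For WT tnsIMs against moMs the count of 2 became 3, with Fth1, in 7 alternatives (DESeq2, library totals, upper quartiles, either block, and without moM replicate 1 or tnsIM replicate 3). For WT matIMs against moMs the count of 1 became 0 with library totals and 2 with DESeq2 and with the replicate block within genotype, and 0 to 1 when 1 library was left out. For WT matIMs against tnsIMs the count of 1 became 2 with DESeq2, 4 with the replicate block and 4 with it within genotype (Ftl1 in place of Srxn1), and 1 to 2 when 1 library was left out. For Ezr-KOm tnsIMs against moMs the count of 1 became 2 with either block. For Ezr-KOm matIMs against moMs the count of 0 became 2 with either block (Slc7a11 and Srxn1). Deviations of same-numbered libraries correlated at 0.0905 to 0.264 there, and those of differently numbered ones at 0.0316 at most. That comparison therefore narrowly missed the rule for pairing, above 0.1 for every pair. For Ezr-KOm matIMs against tnsIMs the count of 2 became 1 with library totals and with each genotype alone, 5 with either block, and 0 to 2 when 1 library was left out. Slc7a11 passed in WT matIMs against moMs with the block within genotype (-0.41, adjusted p = 0.0463), and beside these and the changes in the report neither block changed another member's call. The cause of these changes was not tested, except that a fit without some libraries has fewer samples. Of 90 member and comparison pairs, the 25 that passed in any setting, or had an unadjusted p under 0.05, or concerned Hmox1 between genotypes kept their direction in every alternative, and 26 of the other 65 changed sign in at least 1, all with an absolute log2 fold change of at most 0.33. Depth limits Slc40a1 and Nqo1 most.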

Other observations

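The members varied together within groups to different degrees. Over the 18 libraries, after subtracting the group means of log2 CPM, 37 of the 45 pairs of members had a positive correlation and the median was 0.34. The closest pair was Gclm and Srxn1 (r = 0.90 within groups, 0.89 over all libraries), followed by Ftl1 and Gclm (0.78 within groups) and Fth1 and Gclm (0.73). The 2 subunits of glutamate-cysteine ligase were not among the closest pairs, and Slc40a1 and Fth1 had the opposite sign (-0.40). These values describe libraries that share sequencing and replicate numbers, and no test was made on them.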
